A study of Mus musculus with 26 samples.

Results

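The genes described here are the heat shock proteins and the DnaJ co-chaperones of the mouse germinal vesicle (GV) oocyte, the fully grown oocyte arrested before meiosis resumes. Every gene whose symbol starts with Hspa, Hspb, Hspd, Hspe, Hsph, Hsp90 or Dnaj was taken. The count table held 74 such symbols, of which Dnajb8, Hspa12b and Hspb9 had 0 counts in all columns, leaving 71 members among 24450 genes. They comprised 12 HSP70 genes (Hspa), 3 HSP90 genes, 6 small heat shock protein genes (Hspb), the chaperonin pair Hspd1 and Hspe1, the HSP110 gene Hsph1, and 44 DnaJ genes (4 Dnaja, 12 Dnajb and 28 Dnajc). A further 3 genes, Hspb11, Hspbap1 and Hspbp1, met the rule by symbol but encode other kinds of protein.

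Chaperones of the HSP70 family bind unfolded stretches of other proteins and release them in a cycle driven by ATP. DnaJ proteins deliver the substrates and stimulate the ATPase, nucleotide exchange factors such as Hspa4 and Hsph1 reset the cycle, and HSP90 takes over a subset of substrates for late folding. Small heat shock proteins hold unfolded proteins without ATP, and BiP (Hspa5) and GRP94 (Hsp90b1) serve the endoplasmic reticulum, through which the oocyte secretes its egg coat. In the classical heat shock response, heat shock factor binds elements in the promoters of Hspa1a, Hspa1b, Hspb1, Dnajb1 and others.

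RNA was measured from pools of 10 GV oocytes, by cDNA sequencing, with alterations of Tet3, a dioxygenase that oxidises methylated cytosine, or of Dnmt3a, a DNA methyltransferase. The wild-type group (WT, 6 libraries) had the genotype Tet3 LCDf/f without Cre, where LCD is a low-complexity domain of Tet3 and f/f a floxed allele on both chromosomes. The LCD KO group (7) was Tet3 LCDf/f; Zp3-Cre, and the HD mutant group (5) was Tet3 LCD HD Mutf/f; Zp3-Cre, in which HD is not defined in the sources used here. Dnmt3a KO (2) was Dnmt3af/f; Zp3-Cre, and the double knockout (DKO, 2) was Dnmt3af/f, Tet3 LCDf/f; Zp3-Cre. A further 2 libraries were labelled Tet3 KO (Tet3f/f; Zp3-Cre), and the columns of 2 libraries labelled as Tet1, Tet2 and Tet3 knockout held values identical to these and were counted once. Zp3-Cre is expressed in growing oocytes, and all groups but WT carried it, so that its presence and the deletion cannot be told apart against WT. The sources used here do not give the animals' ages.

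The 24 distinct libraries held 1838824 to 7833087 counts, and 0.826% to 1.18% of these fell on the members. The protocol names 3 batches. Batch 1 holds the first 3 WT and the first 3 LCD KO libraries. Batch 2 holds WT 4 with LCD KO 4 and 5 and the first 3 of HD mutant. Every other library belongs to batch 3, except HD mutant 4 and 5, whose batch was not stated. Summed levels of 14 oocyte markers were 20639 to 64973 CPM (counts scaled to a common library size). HD mutant 1 stood apart from batch 2, since its log2 levels correlated with the mean of batch 1 at 0.961 and with that of its own batch at 0.957, against 0.968 to 0.989 for the other libraries of that batch. The libraries labelled Tet3 KO went against their label. Their Tet3 levels were 261 and 356 CPM, within the WT range of 157 to 426. Dnmt3a was at 142 and 104 CPM, below the WT range of 236 to 619. Within batch 3, mean Tet3 was 188 CPM in WT, 304 in Dnmt3a KO and 309 in these libraries. Mean Dnmt3a was 328, 119 and 123 CPM in the same order. Which genotype these libraries hold was not tested. In LCD KO Tet3 ranged from 43.8 to 199 CPM, although counts per gene do not show which part of a transcript was missing.

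Promoter sequences of 3 places are shown because they hold the heat shock element found among the members, or belong to the member with the widest difference, Hspb1. The element searched for was 3 alternating units of GAA and TTC with any 2 bases between neighbouring units, on both strands, in the 250 bases before each RefSeq start site. A window was found in the RefSeq table for 57 of the 71 members. Of these, 3 (5.26%) held it, against 0.514% of 27025 genes: Dnajb6, Hspd1 and Hspe1. Hspd1 and Hspe1, the mitochondrial chaperonin and its lid, share 1 divergent promoter, so that their matches are the same bases, and 2 matches overlap there. Build GRCm38.p6 was used, which is not the build of the counts, and capitals mark the matched bases.
The 215 bases between the starts of Hspd1 and Hspe1 (chr1:55087933-55088147, plus strand, read towards Hspe1): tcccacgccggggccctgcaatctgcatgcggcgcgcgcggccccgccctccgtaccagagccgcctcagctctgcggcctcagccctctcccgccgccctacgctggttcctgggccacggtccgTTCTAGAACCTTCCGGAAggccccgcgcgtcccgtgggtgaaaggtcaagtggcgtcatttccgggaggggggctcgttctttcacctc
Dnajb6 (chr5:29735648-29735897, plus strand, 250 bases before the start): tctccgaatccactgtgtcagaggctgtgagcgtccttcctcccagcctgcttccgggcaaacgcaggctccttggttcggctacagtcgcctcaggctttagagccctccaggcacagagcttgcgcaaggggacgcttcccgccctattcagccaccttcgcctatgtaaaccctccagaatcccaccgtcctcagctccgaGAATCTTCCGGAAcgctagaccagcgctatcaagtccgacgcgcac
Hspb1 (chr5:135887669-135887918, plus strand, 250 bases before the start): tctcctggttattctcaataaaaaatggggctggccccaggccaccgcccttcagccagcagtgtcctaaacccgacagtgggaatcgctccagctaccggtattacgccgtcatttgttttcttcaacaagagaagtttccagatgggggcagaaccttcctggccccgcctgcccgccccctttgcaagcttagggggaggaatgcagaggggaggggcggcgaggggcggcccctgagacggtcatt
The Hspb1 window held no match to these letters. The search took exact units only, so elements with a changed base were not counted in any window. A match is a description of the letters and not a measurement of binding.

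In WT the members' levels, compared per kilobase of merged exons, spanned several orders of magnitude. Hsp90aa1, a cytosolic HSP90, stood highest at 914 ± 324 CPM per kb (SD, n = 6), with every WT library between 590.2 and 1383. It took 26.1% to 37.0% of all member counts in these libraries. Next came Hspe1 at 237 ± 48.7, the constitutive HSP70 Hspa8 at 151 ± 52.8, Dnajc8, a splicing-associated DnaJ protein, at 143 ± 60.3 and Hspa5 at 130.0 ± 57.2 CPM per kb. The order among these 4 is not resolved, since their ranges over WT libraries overlapped. The heat-inducible HSP70 genes lay near the bottom, with Hspa1a at 0.349 ± 0.239 and Hspa1b at 0.0665 ± 0.0797 CPM per kb. Of the small heat shock proteins, Hspb1 stood highest at 5.23 ± 1.32, and the other 5 averaged at most 0.434 CPM per kb.

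**Figure D1:**
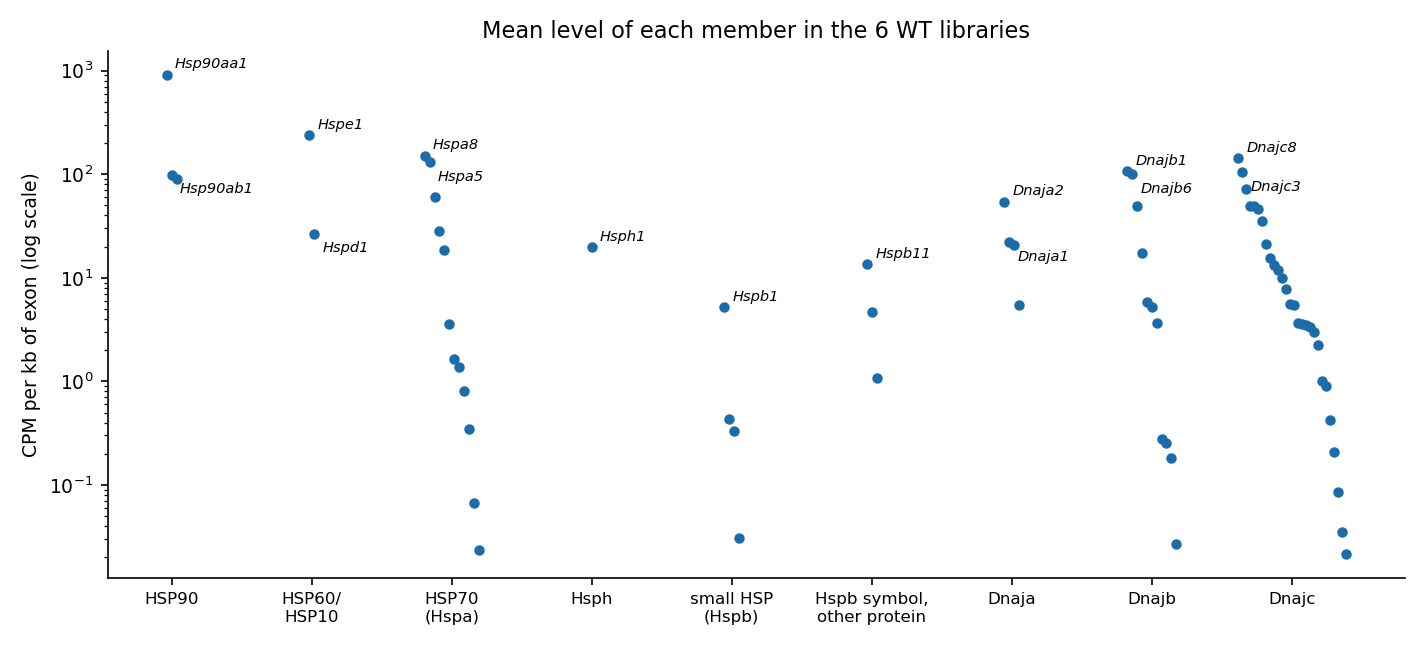
Mean WT level of each member in CPM per kb of merged exon (log scale), 1 point per gene, grouped by family; genes at 0 in WT are not drawn. Hsp90aa1 stands highest at 914 and Hspb1 is the highest of the small heat shock proteins at 5.23.

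Of the 71 members, 56 passed the filter on low counts and entered the edgeR quasi-likelihood test, in which a gene was called at an adjusted p below 0.05. The 15 that did not pass were Dnajb3, Dnajb5, Dnajb7, Dnajb13, Dnajc6, Dnajc12, Dnajc22, Dnajc27, Hspa1b, Hspa1l, Hspb2, Hspb3, Hspb6, Hspb7 and Hspb8, so that Hspb1 was the only small heat shock protein tested. Over 10 comparisons, 16 members were called at least once. All fold changes below are on the log2 scale, with their standard error, and levels are in CPM.

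In LCD KO against WT, 9 of the 56 members were higher, against a background of 8.89% of the 11794 genes tested, and 5 were lower, against 9.44%. Hspb1, Hspa13, Dnajb9, Hspa12a, Hspa14, Dnajb1, Hsp90ab1, Hspa5 and Dnajc9 rose, and Dnaja1, Hsp90b1, Dnaja2, Hspa4 and Dnajb6 fell. Families were thus split: among HSP70 genes 4 rose and 1 fell of 10, among HSP90 genes 1 rose and 1 fell of 3, and among Dnaja genes 2 of 4 fell and 0 rose. Of 24 Dnajc genes edgeR called 1, and DESeq2 also called Dnajc11 (-0.31, adjusted p = 0.0444). The median log2 difference over all 56 was 0.02, against -0.02 over all genes.

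Hspb1 (HSP27) encodes a small heat shock protein that binds unfolded proteins and actin filaments, and it had the largest difference of the called members. Its level in WT was 3.90 to 7.84 (median 5.20) CPM and in LCD KO 8.70 to 35.5 (median 20.2) CPM. The groups did not overlap, in the pooled libraries or within any of the 3 batches. The fitted difference was 1.79 ± 0.23 (3.46-fold, adjusted p = 4.62e-06), and it was higher in 7 of 7 LCD KO libraries than in any WT library. Within batches it was 1.32 in batch 1, 2.56 in batch 2 (adjusted p = 0.0829, 1 WT library) and 1.81 in batch 3. Levels in the LCD KO libraries followed the batch, at 8.70, 12.3 and 13.2 CPM in batch 1, 30.8 and 35.5 in batch 2, and 20.2 and 25.0 in batch 3.

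Hspb1 also rose in DKO, and it was not called against WT in Dnmt3a KO, HD mutant or the libraries labelled Tet3 KO. In DKO its levels were 19.6 and 34.4 CPM, above every WT library, with a difference of 2.04 ± 0.32 against WT (adjusted p = 0.000272). Dnmt3a KO stood at 5.87 and 3.64 CPM, and those labelled Tet3 KO at 5.996 and 4.88 CPM. These 4 lay within or just below the WT range, with differences from WT of -0.49 ± 0.39 (adjusted p = 0.637) and -0.25 ± 0.37 (adjusted p = 0.981). HD mutant libraries stood at 5.66, 8.87, 7.80, 9.62 and 8.03 CPM, and the difference from WT was -0.19 ± 0.33 (adjusted p = 0.777), from the 3 libraries with a stated batch. WT 4, the WT library of that batch, stood at 5.72 CPM, and the value within batch 2 alone was 0.41, of the other sign. The batch term of the fit over all batches also drew on LCD KO and on the other WT libraries. The direct tests between groups gave -1.98 ± 0.28 for HD mutant against LCD KO (adjusted p = 7.67e-05), 2.54 ± 0.39 for DKO against Dnmt3a KO (adjusted p = 0.000811) and 2.04 ± 0.36 for LCD KO against the libraries labelled Tet3 KO (adjusted p = 0.000701). HD mutant and LCD KO overlapped when the batches were pooled, and within batch 2 all 3 HD mutant libraries were lower (-2.15, adjusted p = 0.00759). DKO and LCD KO differed by 0.25 ± 0.31 (adjusted p = 0.926).

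**Figure D2:**
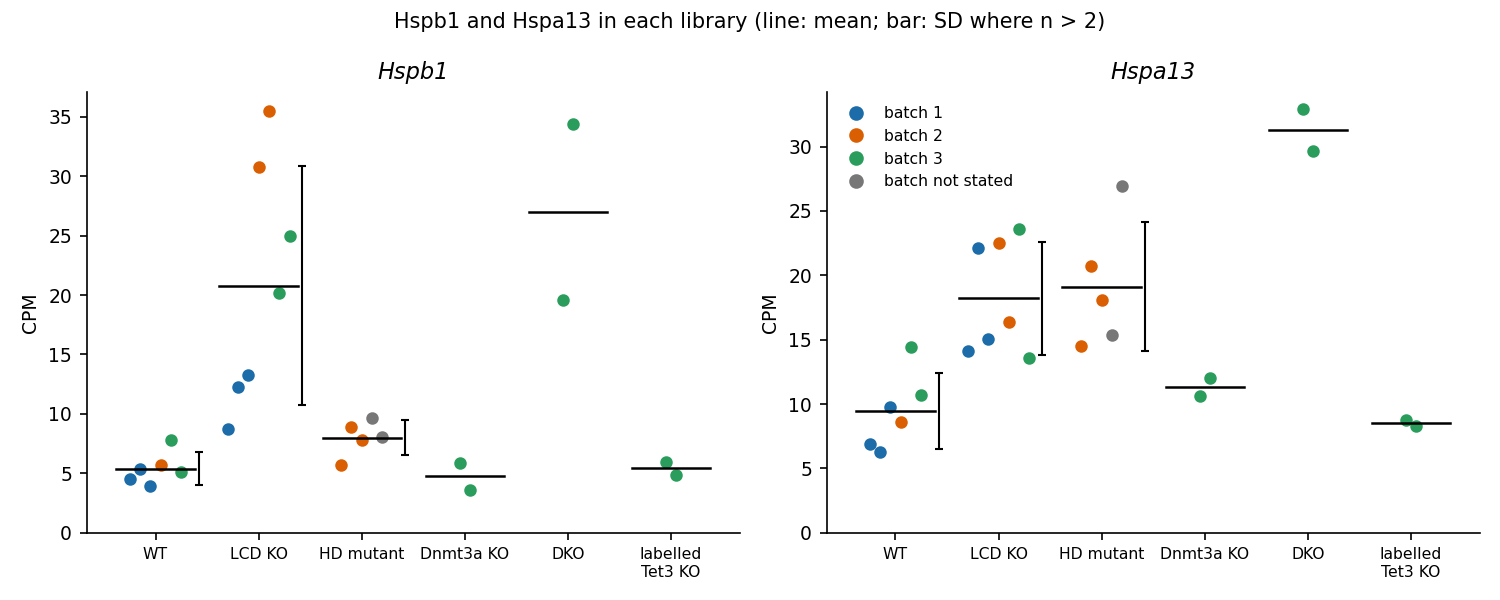
CPM of Hspb1 (left) and Hspa13 (right) in each of 24 libraries by group; points are libraries coloured by batch, lines are means and bars the SD where a group has over 2 libraries. For Hspb1, the LCD KO libraries (8.70 to 35.5) and DKO libraries (19.6 and 34.4) all lie above the WT libraries (3.90 to 7.84).

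Markers of other ovarian cells were read beside Hspb1. The summed level of 12 granulosa or cumulus markers was 43.9 to 99.4 CPM in WT and 65.6 to 333 in LCD KO, the highest in LCD KO 2. Without LCD KO 2 the Hspb1 difference was 1.80 (adjusted p = 1.5e-05). In DKO, where Hspb1 was also high, that sum was 51.3 and 61.0 CPM. Fshr, Foxl2, Amh, Amhr2, Hsd17b1, Lhcgr and Ptx3 had 0 counts in both DKO libraries. The other markers had counts there: Cyp19a1 116 and 99, Cyp11a1 62 and 55, Hsd3b1 18 and 15, Inha 5 and 10, Has2 3 and 4. In WT 5 and 6, of the same batch, Foxl2, Amh, Amhr2 and Hsd17b1 were also at 0. Hsd3b1 had 3 and 5 counts in these WT libraries, and Inha 0 and 1. Whether other cells contributed to the Hspb1 difference was not tested. Of the 4 granulosa markers tested in LCD KO, Hsd3b1 was higher by 0.99 ± 0.33 (adjusted p = 0.0355), and of 9 theca or stroma markers the 1 tested, Dcn, was higher by 2.08 ± 0.44 (adjusted p = 0.00161), with a summed level of 1.04 to 3.94 CPM in WT and 3.62 to 7.25 in LCD KO. The sum of 10 blood or immune markers was at most 3.37 CPM in every library. Of the 14 oocyte markers, 7 fell in LCD KO (Figla, Kit, Mos, Oosp1, Padi6, Zp1 and Zp2) and 0 rose. In pools of oocytes, fewer oocytes with a transcript and less of it in each cannot be told apart.

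Hspa13, Hspa12a and Hspa14, which also rose in LCD KO, are divergent members of the HSP70 family. Hspa13 encodes a microsomal HSP70 relative without the substrate-binding domain. Its level was 6.27 to 14.4 (median 9.17) CPM in WT and 13.6 to 23.6 (median 16.3) in LCD KO, with 2 LCD KO libraries, of batches 1 and 3, below the highest WT library, which was of batch 3. The difference was 0.96 ± 0.19 (adjusted p = 0.00112). DKO libraries held 32.9 and 29.7 CPM, above all other libraries, against 10.6 and 12.0 in Dnmt3a KO and 8.76 and 8.30 in the pair labelled Tet3 KO. The tests gave 1.53 ± 0.28 for DKO against WT (adjusted p = 0.00175), 1.46 ± 0.33 for DKO against Dnmt3a KO (adjusted p = 0.0173) and 1.31 ± 0.32 for LCD KO against the libraries labelled Tet3 KO (adjusted p = 0.0104). Leaving out any 1 of the 4 libraries ended the call of DKO against Dnmt3a KO (lowest adjusted p 0.057), and leaving out either library labelled Tet3 KO ended the last. In HD mutant the 5 values were 14.5, 20.7, 18.1, 15.4 and 27.0 CPM, with a difference from WT of 0.89 ± 0.29 that missed the threshold (adjusted p = 0.053; DESeq2 0.0331, edgeR with no batch term 0.0168).

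Hspa12a, a distant HSP70 relative, ranged over 12.2 to 16.6 (median 16.3) CPM in WT and 19.3 to 32.0 (median 26.4) in LCD KO, and the groups did not overlap. Its difference was 0.78 ± 0.16 (adjusted p = 0.000938), positive in each batch. HD mutant held 19.5, 23.7, 22.2, 20.2 and 17.8 CPM, also above every WT library, with 0.81 ± 0.24 against WT (adjusted p = 0.0329). DKO stood at 20.4 and 28.3, Dnmt3a KO at 17.6 and 14.3 and the libraries labelled Tet3 KO at 14.3 and 20.7 CPM, and none of these groups passed the test against WT.

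Hspa14 encodes the HSP70 of the ribosome-associated complex, which assists new chains on the ribosome together with the DnaJ protein Dnajc2. WT libraries spanned 30.8 to 114 (median 72.9) CPM and LCD KO libraries 54.3 to 153 (median 123), with overlap between batches and none within a batch. The difference of 0.73 ± 0.14 (adjusted p = 0.000837) was 1.03 in batch 1, 0.97 in batch 2 and 0.19 in batch 3. HD mutant, at 76.3, 49.5, 46.9, 102 and 127 CPM, differed from WT by 0.76 ± 0.23 (adjusted p = 0.0382). Both values use the same WT libraries. Its partner Dnajc2 was not called, with 0.09 ± 0.13 in LCD KO (adjusted p = 0.681) and -0.14 ± 0.21 in HD mutant (adjusted p = 0.731).

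Of the better known cytosolic HSP70 genes and their exchange factors, 1 was called in LCD KO, Hspa4, which fell. Hspa8, the constitutive HSP70, ranged over 294 to 972 (median 675) CPM in WT and 283 to 864 (median 397) in LCD KO, and its difference of -0.32 ± 0.13 missed the threshold (adjusted p = 0.0889). Hspa4, the exchange factor, fell by 0.44 (SE 0.15, adjusted p = 0.0365), from 119 to 209 (median 149.7) CPM to 94.2 to 138 (median 107). That fall was not uniform, since the value within batch 2 was 0.19. Hsph1, its HSP110 relative, stood at 103 to 222 (median 134) CPM in WT and 75.4 to 249 (median 117) in LCD KO, with a difference of -0.23 ± 0.15 (adjusted p = 0.306). Its highest values in both groups came from batch 2. Hspa1a, a heat-inducible HSP70, held 0.179 to 2.07 (median 1.005) CPM in WT and 0.725 to 4.73 (median 1.84) in LCD KO, or 20 and 77 counts in all. Its difference of 1.34 ± 0.49 missed the threshold (adjusted p = 0.0572; DESeq2 adjusted p = 0.0426). The near-identical Hspa1b did not pass the filter, with 5 counts in the 6 WT and 42 in the 7 LCD KO libraries (2.28, adjusted p = 0.0274 with no filter), and how reads were split between the pair is uncertain.

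Among the DnaJ partners of cytosolic HSP70, the class A genes Dnaja1 and Dnaja2 fell and the class B gene Dnajb1 rose in LCD KO. Dnaja1 fell by 0.67 (SE 0.15, adjusted p = 0.00284), from 122 to 263 (median 199) CPM in WT to 80.3 to 161 (median 112) in LCD KO. Dnaja2 fell by 0.48 (SE 0.15, adjusted p = 0.0211), from 135 to 212 (median 155) to 76.5 to 184 (median 111) CPM. For both, every LCD KO library of batch 1 was below every WT library of that batch, with values of -1.10 and -0.84, while in batch 2 they were -0.09 and 0.19. Dnajb1 (HSP40), a classical heat shock gene, rose by 0.49 ± 0.13 (adjusted p = 0.00695), from 274 to 475 (median 328) CPM to 328 to 571 (median 518). DKO stood at 581 and 537 CPM and the libraries labelled Tet3 KO at 548 and 422, of which the first also exceeded every WT library. Dnajb6, which keeps aggregation-prone proteins soluble and has the heat shock element shown above, fell by 0.31 (SE 0.10, adjusted p = 0.0378), from 395 to 867 (median 578) to 326 to 602 (median 402) CPM. Dnajc9, a DnaJ protein that also binds histones, rose by 0.42 ± 0.14 (adjusted p = 0.0425), from 104 to 206 (median 181) to 128 to 317 (median 202) CPM, with a value of 0.06 in batch 3. The calls of Dnaja2, Dnajb6, Dnajc9, Hspa4 and Hspa5 were each lost when some single library was left out, and the other 9 were kept in all 13 such fits.

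Of the 3 HSP90 genes, 1 rose and 1 fell in LCD KO. Hsp90ab1, the constitutive cytosolic HSP90, rose by 0.47 ± 0.11 in LCD KO (adjusted p = 0.00338), from 263 to 369 (median 286) CPM to 349 to 565 (median 386). LCD KO libraries were above the WT libraries of their own batch in all 3 batches. Hsp90aa1, the inducible cytosolic form, held 2320.0 to 5435 (median 3479) CPM in WT and 2293 to 3934 (median 2462) in LCD KO, with -0.24 ± 0.11 (adjusted p = 0.131). Hsp90b1, of the endoplasmic reticulum, fell by 0.49 (SE 0.11, adjusted p = 0.00349), from 252 to 533 (median 356) to 217 to 369 (median 252) CPM, and was lower within every batch. In HD mutant its 5 values were 271, 329.7, 369, 132 and 247 CPM, and it fell there by 0.59 (SE 0.18, adjusted p = 0.0379).

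Of the other named chaperones of the endoplasmic reticulum, Hspa5 and Dnajb9 rose in LCD KO and 2 were not called. Hspa5, the HSP70 of that compartment, rose in LCD KO by 0.44 ± 0.13 (adjusted p = 0.0217). Its levels ran from 219.7 to 834 CPM in WT (median 562) and from 290.3 to 1136 in LCD KO (median 504), overlapping between batches and not within any. Dnajb9, a DnaJ protein that is induced by unfolded protein and binds Hspa5, rose by 0.83 ± 0.20 (adjusted p = 0.00492), from 7.21 to 21.3 (median 16.0) CPM to 15.5 to 46.0 (median 23.6), again without overlap within a batch. Dnajc3, which restrains the kinase PERK, held 162 to 761 (median 570.1) CPM in WT and 242 to 909.8 (median 462) in LCD KO and was not called (0.23 ± 0.12, adjusted p = 0.169). Dnajb11, a further partner of Hspa5, held 43.5 to 64.3 (median 58.0) and 43.0 to 79.2 (median 67.2) CPM and was not called either (0.22 ± 0.14, adjusted p = 0.282). Levels of Hspa5 differed widely between batches: WT of batch 1 held 690.1 to 834 CPM of Hspa5, and the WT library of batch 2 held 219.7.

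**Figure D3:**
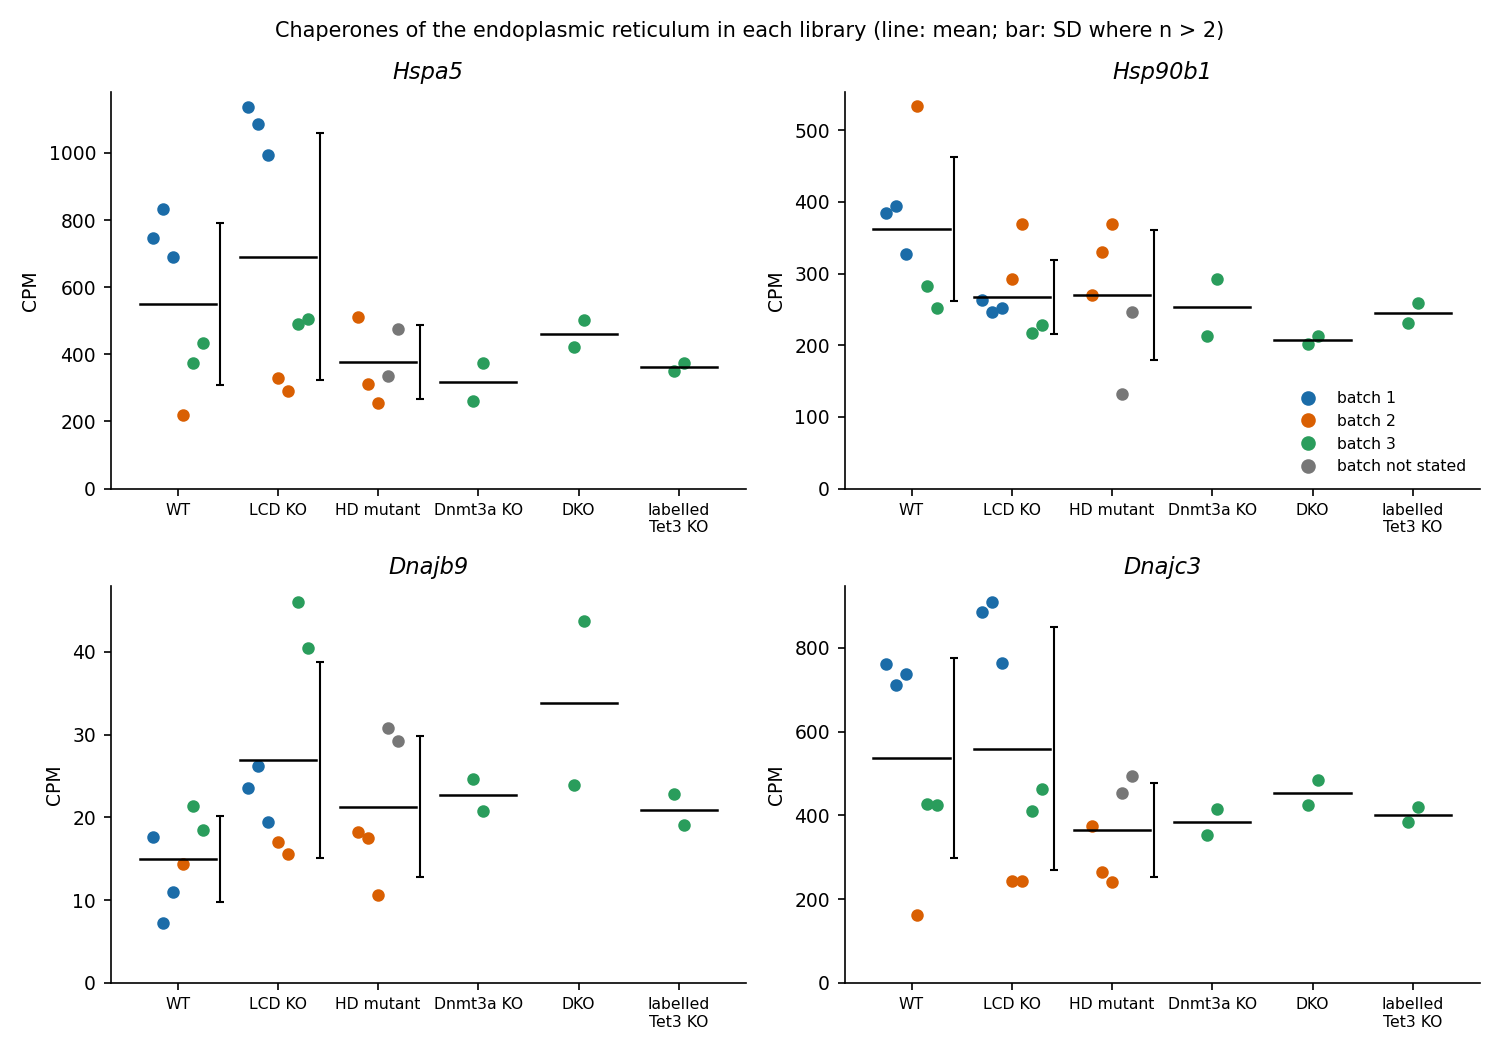
CPM of Hspa5, Hsp90b1, Dnajb9 and Dnajc3 in each library by group; points are libraries coloured by batch, lines are means and bars the SD where a group has over 2 libraries. Within each colour, LCD KO lies above WT for Hspa5 and Dnajb9 and below WT for Hsp90b1.

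Over all batches, the mitochondrial pair was not called by edgeR or DESeq2 in any of the 10 comparisons. Of its 20 values there, 0 had an unadjusted p below 0.05. Within batch 1 alone, edgeR called Hspd1 lower in LCD KO than in WT (-0.49, adjusted p = 0.0248). Hspd1 (HSP60) held 37.6 to 92.5 (median 73.6) CPM in WT and 48.2 to 64.7 (median 61.0) in LCD KO, a difference of -0.20 ± 0.15 (adjusted p = 0.397). Hspe1 (HSP10) held 245 to 417 (median 376) and 263 to 441 (median 326) CPM, a difference of 0.02 ± 0.11 (adjusted p = 0.935). Reads of both genes, of Hspa8 and of Hsp90aa1 can also match processed pseudogene copies, and the sources used here do not say how such reads were treated.

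The count of calls in LCD KO against WT differed between single batches, which also differed in their numbers of libraries. Within batch 1 alone, 26 of 51 members tested were called, against a background of 30.3%. Dnajc2, Dnajc8, Dnajc11, Dnajc14, Dnajc16, Hsp90aa1, Hspa8, Hspa9, Hspb11, Hspbap1, Hspd1 and Hsph1 were called there by edgeR but not over all batches. Batch 2 gave 0 of 59 (background 0.0946%, 13 at an unadjusted p below 0.05, 1 WT library) with edgeR, while DESeq2 called 1, Hspb1, and batch 3 gave 1 of 55, Hspb1 (background 0.789%). Of the 14 members called over all batches, 12 had the same sign in all 3 batches, the exceptions being Dnaja2 and Hspa4. These members were chosen by a fit over the same libraries, so the agreement in sign is partly built in. Without a batch term, in a fit that also took in the HD mutant libraries with no stated batch, 4 members were called. The share of all genes called in that fit is not given here, so the lower count need not be particular to the members.

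**Figure D4:**
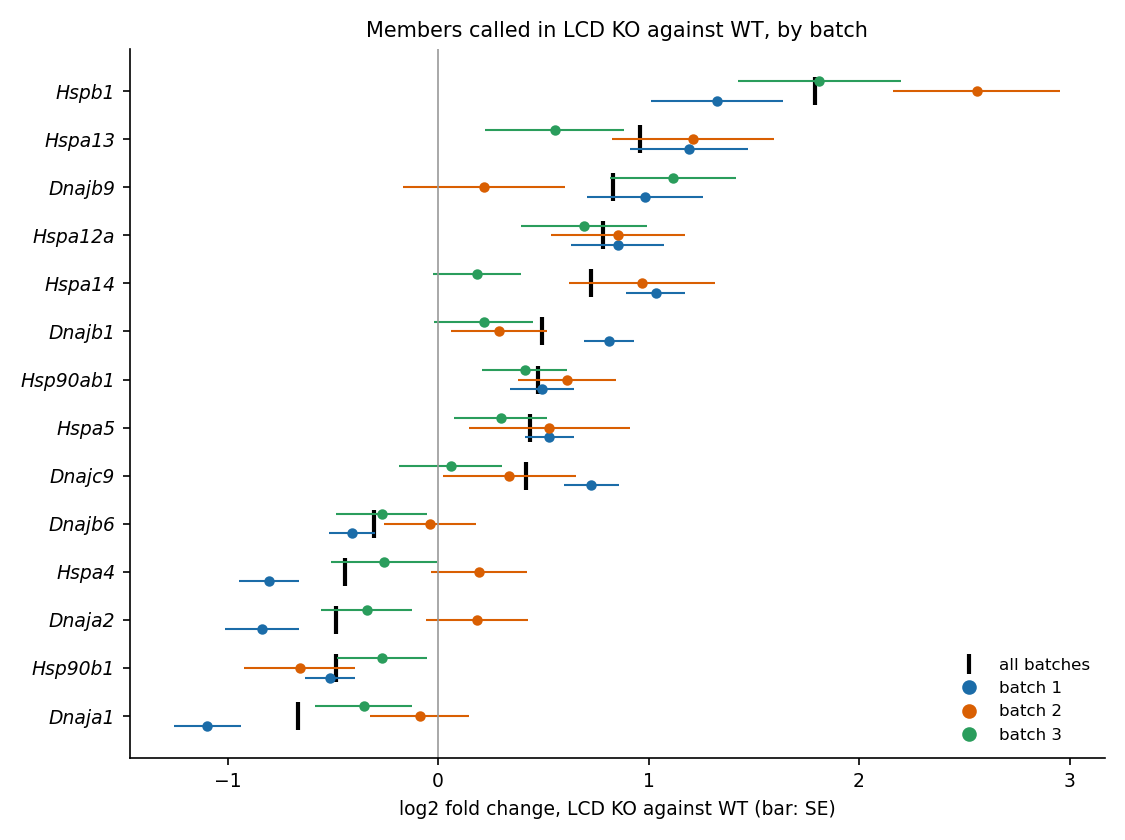
Log2 fold change of LCD KO against WT for the 14 called members, fitted over all batches (black) and within each batch (coloured points, bars are SE). Hspb1 lies above 1.3 in every batch, and Dnaja2 and Hspa4 change sign in batch 2.

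In HD mutant against WT, 4 members were higher, against a background of 4.08%, and 1 was lower, against 3.75%. Hspa12a, Hspa14, Dnajc8 and Dnajc3 rose and Hsp90b1 fell. For Dnajc8, the 5 HD mutant values were 362, 224, 218, 513 and 509.6 CPM against 160.3 to 574 (median 349.8) in WT, overlapping over all batches, and the difference was 0.75 ± 0.20 (adjusted p = 0.0192). For Dnajc3 they were 374, 265, 239.6, 453 and 493 CPM against the WT range of 162 to 761, with 0.61 ± 0.19 (adjusted p = 0.0425). Dnajc3 turned to -0.56 when the batch term was dropped and HD mutant 4 and 5 entered. Hspa5, at 510.3, 311, 256, 336 and 475 CPM, differed by 0.67 ± 0.21 and narrowly missed the threshold (adjusted p rounded to 0.05; DESeq2 adjusted p = 0.0339, edgeR with no filter on low counts 0.0324). The fit rests on HD mutant 1 to 3 and on 1 WT library of their batch. Without WT 4, edgeR called 0 members (17 at an unadjusted p below 0.05) and DESeq2 3 (9 with that library). Without HD mutant 1, edgeR called 1. For these reduced fits the share of all genes called is not given here, so the lower counts need not be particular to the members. In the main test the median over members was 0.06, against -0.01 over all genes.

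The remaining textbook members were measured in HD mutant as well. Hsp90aa1 held 1776, 2055, 1876, 2216 and 2489 CPM (-0.46 ± 0.18, adjusted p = 0.0978), and Hspa8 held 357, 334, 332, 383 and 486 CPM (0.00 ± 0.21, adjusted p = 0.997). Dnajb1 held 296, 308, 335, 284 and 316 CPM (0.26 ± 0.20, adjusted p = 0.43). None of these was called by edgeR, although 4 of the 5 Hsp90aa1 values lay below every WT library and DESeq2 called it (adjusted p = 0.0448). Hspd1 held 62.4, 59.3, 48.3, 37.5 and 71.2 CPM and Hspe1 341, 339, 351, 445 and 384 CPM, with values inside or near the WT ranges. Hspa1a held 1.57, 1.92, 0.990, 1.44 and 0 CPM and was not called by edgeR. WT 4, the WT library of batch 2, held 0.179 CPM of it, from 1 count. HD mutant against LCD KO differed in 1 member only, Hspb1, which was lower, against a background of 0.907%.

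In Dnmt3a KO against WT, edgeR and DESeq2 each called 0 members, against a background of 0.755%, and 2 members had an unadjusted p below 0.05. These were Dnajc8 (0.48 ± 0.19) and Hspa2, an HSP70 known from male meiosis (1.02 ± 0.47). In DKO against WT, 2 members were higher, Hspb1 and Hspa13, against a background of 2.27%, and DKO against Dnmt3a KO gave the same 2 genes, against 1.07%. These comparisons share the DKO libraries. DKO against LCD KO gave 0 calls with both tools (background 0.314%), with 3 members at an unadjusted p below 0.05: Hsph1 (0.73 ± 0.24), Hspa1a (-1.56 ± 0.71) and Dnajc5b (-0.73 ± 0.35).

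Several members called in LCD KO had DKO values on the same side of WT without passing the test there. Dnajb9 held 23.9 and 43.7 CPM in DKO (0.60 ± 0.31, adjusted p = 0.323), Hsp90ab1 364 and 381 (0.49 ± 0.17, adjusted p = 0.121) and Dnaja1 146 and 118 (-0.56 ± 0.25, adjusted p = 0.224). Dnmt3a KO held 24.6 and 20.8, 266 and 321 and 196 and 225 CPM of the same 3 genes. Each DKO pair lay within the LCD KO range for these genes. The DKO values of 364 for Hsp90ab1 and 146 for Dnaja1 also lay within the WT range. For Dnajb9, the Dnmt3a KO library at 24.6 CPM was above every WT library too. The interaction test, which asks whether the LCD effect differed with Dnmt3a deleted, called 0 members with both tools (background 0.0678%), and 2 had an unadjusted p below 0.05, Dnajc16 (1.64 ± 0.77) and Dnajc8 (-0.52 ± 0.25). For Hspb1 the interaction was 0.75 ± 0.46 (adjusted p = 0.781).

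The libraries labelled Tet3 KO gave 0 called members against WT with both tools (background 1.37%), and 1 member, Dnajc5b, had an unadjusted p below 0.05 (-0.73 ± 0.35). LCD KO was higher than these libraries in 2 members, Hspb1 and Hspa13, against a background of 4.02%. Hspa8 stood at 1205 and 1011 CPM in these libraries, above every WT library, with 0.28 ± 0.21 against WT (adjusted p = 0.837).

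**Figure D5:**
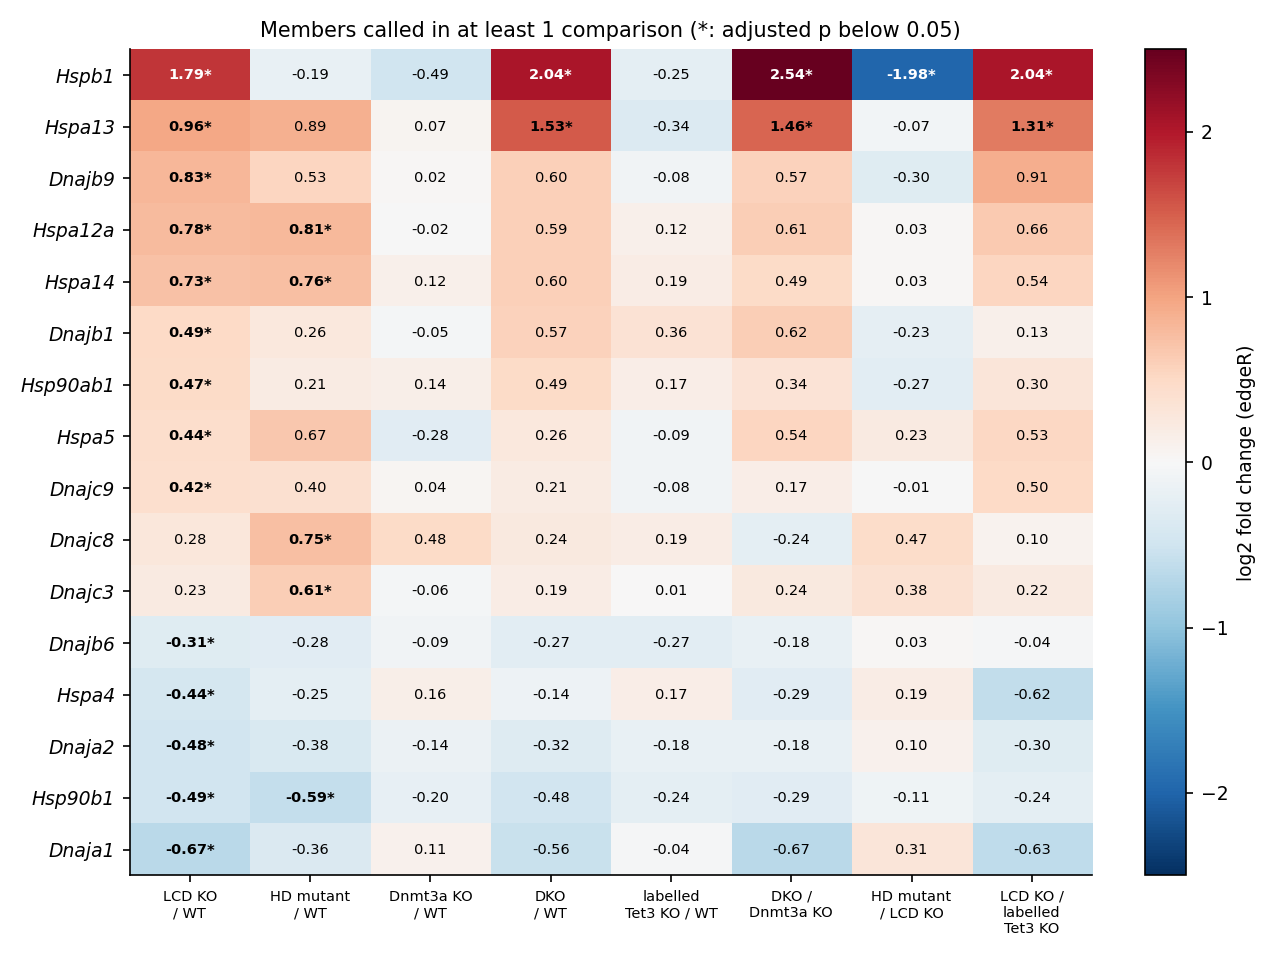
Log2 fold changes of the 16 members called in at least 1 comparison (rows) in 8 comparisons (columns); red is higher and blue lower in the first-named group, and an asterisk marks an adjusted p below 0.05. Hspb1 is called in 5 of the 8, and comparisons that share a group also share its libraries.

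Lists of genes that work with these chaperones were read beside the share of all genes called in either direction, 18.3% in LCD KO against WT, 7.83% in HD mutant against WT and 7.59% in LCD KO against the libraries labelled Tet3 KO. Among 31 tested co-chaperones of HSP70 and HSP90, 2 rose and 2 fell in LCD KO, and the median difference was -0.04, against -0.02 over all genes. Stub1 (CHIP), the ubiquitin ligase that marks chaperone-bound proteins, rose by 0.71 ± 0.13 (adjusted p = 0.000491) and Sgta, a co-chaperone of misfolded membrane proteins, by 0.37 ± 0.11 (adjusted p = 0.0209), while Cdc37l1 and Ttc4, both HSP90 partners, fell by 0.39 and 0.39 (adjusted p = 0.0191 and 0.0241). Stub1 also rose in HD mutant against WT (0.70 ± 0.20, adjusted p = 0.0346), beside Grpel1, the mitochondrial exchange factor (0.64 ± 0.19, adjusted p = 0.0351). In LCD KO against the libraries labelled Tet3 KO, Stub1 was higher (0.78 ± 0.22) and Aarsd1 and Ttc4 were lower (-0.71 ± 0.22 and -0.63 ± 0.19). In the other 7 comparisons edgeR and DESeq2 called 0 co-chaperones, and 18 of 217 values had an unadjusted p below 0.05.

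The shorter lists had 1 of 5, 1 of 14, 2 of 14 and 0 of 7 genes called in LCD KO, with medians of -0.03, -0.09, 0.00 and 0.41, beside the 18.3% and -0.02 of all genes. Of 5 tested heat shock factors and their regulators, 1 was called in LCD KO, Hsbp1, which binds and restrains heat shock factor and rose by 0.48 ± 0.14 (adjusted p = 0.0147). In the other 9 comparisons edgeR and DESeq2 called 0 of the 5, and 3 of 45 values had an unadjusted p below 0.05. Of 14 tested genes of the TRiC chaperonin and prefoldin, the prefoldin subunit Pfdn6 rose in LCD KO (0.42 ± 0.13). Pfdn1 was lower in DKO against WT (-0.76 ± 0.17) and against Dnmt3a KO (-0.81 ± 0.18). It was higher in LCD KO against the libraries labelled Tet3 KO (0.53 ± 0.17). For this list, edgeR called 0 in the other 6 comparisons, while DESeq2 called 4 of the 84 values there. By edgeR, 7 of these had an unadjusted p below 0.05. Among 14 other folding factors of the endoplasmic reticulum and mitochondria, the disulphide isomerase Pdia6 and the protease Lonp1 fell in LCD KO (-0.55 ± 0.15 and -0.53 ± 0.17), and 0 rose. Pdia6 was also lower than WT in Dnmt3a KO (-1.22 ± 0.25), DKO (-0.91 ± 0.25) and the libraries labelled Tet3 KO (-0.95 ± 0.25), but higher in HD mutant (1.01 ± 0.24 against WT and 1.56 ± 0.22 against LCD KO), where the mitochondrial unfoldase Clpx (0.87 ± 0.22) and Sdf2l1 (0.88 ± 0.23) rose too. Of 7 tested immediate early genes, which respond to handling, edgeR and DESeq2 called 0 in LCD KO against WT (2 at an unadjusted p below 0.05) and 1, Btg2, was higher in HD mutant against WT (0.97 ± 0.25) and in LCD KO against the libraries labelled Tet3 KO (1.03 ± 0.26). The 1 tested gene among 3 small heat shock relatives with other symbols was not called by either tool in any comparison, and 0 of its 10 values had an unadjusted p below 0.05.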

How the data were processed

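The authors deposited raw read counts per gene symbol, 1 column per library. Per the submitters' processing notes, Trim Galore 0.5.0, HISAT2 2.1.0, featureCounts 1.6.4 and the build mm9 were used; the sources used here give neither annotation nor strand setting, nor the handling of multi-mapping reads. The 92 ERCC rows, with 1 count in all, were left out. From the counts, edgeR 4.0.16 (R 4.3.3) was run with TMM factors, a filter by group and terms for group and batch on the 22 libraries with a stated batch; it tested 11794 genes with 14 residual degrees of freedom, and p-values were adjusted over all of them by Benjamini-Hochberg. The script was tested on simulated data. CPM values are counts over TMM-scaled library sizes. Libraries were grouped by their titles and genotypes. The labels call the pools biological replicates but do not tie them to animals, so p-values measure the spread between pools. Alternatives were RLE factors, no filter, DESeq2 1.42.0, no batch term (24 libraries), single batches, a replicate block and leaving out each library. Total counts of 1838824 to 7833087 leave genes with few counts, such as Hspa1b, without a test.

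The members, the gene lists and the tests were chosen with earlier results of these data known. Every called member is named. Hspb1, the 10 largest called differences of each comparison and 13 textbook chaperones are given by library or by range and median. For many of these the values cover some groups only, and Hspa1b is given by its WT mean and summed counts. Marker and partner lists were read from the same fit. Lengths are merged exons of GENCODE M21, and promoter sequences are from the RefSeq table of GRCm38.p6. Protein sequences were not used here.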

Additional observations from a re-analysis of the deposited data

Results flagged for a closer look

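Among 69 sets of values (23 named members in the 3 groups of 5 to 7 libraries), 3 had 1 library far from the others, and chance alone gives about 1 in 20. Hsph1 in WT 4 stood at 222 CPM, against 103 to 145 in the other 5 WT libraries. WT 4 was the only WT library of batch 2, and the Hsph1 values of LCD KO 4 and 5 in that batch were 247 and 249 CPM. Hsp90ab1 in LCD KO 2 stood at 565 CPM, against 349 to 412 in the other 6 LCD KO libraries; without that library its difference from WT was 0.38 (adjusted p = 0.0169). Dnaja1 in HD mutant 5, a library with no stated batch that was outside the main test, stood at 195 CPM, against 115 to 137 in the other 4.

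Effects of 2 genotypes differed by a direct test for Hspb1 and Hspa13. HD mutant and LCD KO differed in Hspb1 by -1.98, with 5 HD mutant libraries at 5.66 to 9.62 CPM. DKO and Dnmt3a KO differed in Hspb1 by 2.54 and in Hspa13 by 1.46. LCD KO and the libraries labelled Tet3 KO, whose label goes against their Tet3 and Dnmt3a counts, differed in Hspb1 by 2.04 and in Hspa13 by 1.31.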

How the results depend on the processing

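With DESeq2, RLE factors and no filter on low counts, called members numbered 16, 14 and 14 in LCD KO against WT (14 in the main test) and 9, 5 and 4 in HD mutant against WT (5). With no filter, LCD KO against the libraries labelled Tet3 KO gave 4 (2), and the interaction gave 1 (0), Hspa1b. Hspa1b, which has few counts, was also called without the filter in LCD KO against WT (adjusted p = 0.0274) and in DKO against Dnmt3a KO (adjusted p = 0.0389). With edgeR and no batch term the counts were 4 in LCD KO against WT, 2 in HD mutant against WT, 0 in DKO against Dnmt3a KO (2; 2 at an unadjusted p below 0.05, DESeq2 2) and 1 in LCD KO against the libraries labelled Tet3 KO. Within batch 1 LCD KO against WT gave 26, within batch 2 edgeR gave 0 (13 at an unadjusted p below 0.05, DESeq2 1) and for HD mutant against WT 0 (10, DESeq2 0), and within batch 3 LCD KO gave 1 against WT and 1 against the libraries labelled Tet3 KO. Leaving out 1 library, edgeR gave 10 to 16 calls in LCD KO against WT, 0 to 7 in HD mutant against WT, 2 to 3 in DKO against WT, 1 in each of 4 fits of DKO against Dnmt3a KO, 1 to 3 in LCD KO against the libraries labelled Tet3 KO, 1 in HD mutant against LCD KO, and 0 in the comparisons with 0 calls. HD mutant against WT gave 3, 2, 2 and 0 edgeR calls without WT 1, 2, 3 and 4 (DESeq2 3 without WT 4) and 1 without HD mutant 1. DESeq2 in these subsets was chosen after seeing the data. The share of all genes called is not given beside these counts, so a change in a count need not be particular to the members.

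Of 174 values of called members under other settings, 119 kept call and direction, 52 lost the call and 3 reversed: Dnaja2 (0.19) and Hspa4 (0.19) in LCD KO against WT within batch 2, and Dnajc3 (-0.56) in HD mutant against WT with no batch term. The cause was not tested. Of 279 values with 1 library left out, 58 lost the call and 0 reversed.

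The labels do not say whether a replicate number pairs libraries. Deviations of WT and LCD KO with the same number in batch 1 correlated at -0.22, -0.23 and -0.13. Those with different numbers in that batch correlated at -0.24 to -0.09. Same-numbered pairs of other batches ran from -0.69 (WT 4 and LCD KO 4) to 0.27 (Dnmt3a KO and the libraries labelled Tet3 KO). Deviations were taken after group and batch were fitted, which constrains these values, so they cannot decide whether the numbers pair the libraries. With a replicate block, 15 members were called in LCD KO against WT, with Dnajc11 (-0.44) and Dnajc17 (0.63) among them, 2 in DKO against Dnmt3a KO and 0 for the interaction; the other comparisons could not be fitted with it. Counts per library limit Hspa1a and the 15 untested members most.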

Other observations

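Levels of some members, chosen after their values were seen, differed between batches. Hsp90aa1 held 4319 to 5435 CPM in the 3 WT libraries of batch 1 and 2320 to 2640.2 in the other 3. Hspa5 held 690.1 to 834 CPM in WT of batch 1, 219.7 in that of batch 2 and 374 and 434 in those of batch 3. Dnajb6 held 738 to 867 CPM in WT of batch 1 and 395 to 418 in the other 3. Hspa8 was lowest in batch 2, at 294 CPM in WT 4 and 283 and 298 in LCD KO 4 and 5, and highest in batch 3, at 755 and 972 CPM in WT and 683 and 864 in LCD KO.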
